A study of Drosophila melanogaster with 2 samples.

Results

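The cytochrome P450 genes of Drosophila melanogaster were followed between homozygous mbf1 mutants and the control strain yw. The genes were taken by symbol, as every probe set of the deposited table whose single gene symbol reads Cyp, digits, lower-case letters, digits. This rule gave 80 genes read by 84 probe sets, out of 10843 genes with a named probe set and 14010 probe sets in all, and it left out the cyclophilins, whose symbols also begin with Cyp. The 80 genes fell into 20 families and 44 subfamilies.

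P450 enzymes are haem-binding monooxygenases that insert an oxygen atom into their substrate, with electrons that come from a reductase. Insect P450 genes are sorted into the CYP2, CYP3, CYP4 and mitochondrial clans. Members of the CYP3 clan are best known for breaking down plant toxins and insecticides in midgut, Malpighian tubule and fat body, CYP4 members for work on fatty acids and hydrocarbons, and several CYP2 and mitochondrial members for making or inactivating the moulting hormone ecdysone. Many lie in tandem arrays of related genes that arose by duplication.

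The tested animals were homozygous for a mutation of mbf1, the gene of multiprotein bridging factor 1, a transcriptional coactivator, and the labels name no allele. The controls were yw, a strain that carries yellow, which lightens the body, and white, which removes eye pigment. Per the labels, both were embryos left for 16 h after egg laying at 25 °C, without a number of animals per sample. Total RNA of each genotype went onto 1 array, the first Affymetrix Drosophila genome chip, so the question of which genes depend on MBF1 rests on 2 arrays in all. No value below has a replicate error, no test between genotypes was possible, and what is compared is a pair of arrays. Any difference in strain background between the mbf1 and yw animals cannot be told apart from the mutation.

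Signals are given after the mbf1 array had been scaled down 1.47-fold, so that the bulk of bright probe sets had a ratio of 1. A floor at the 40th percentile of all values, a signal of 17.7, was set under both arrays, and a gene above it on at least 1 array is called measured. Where a gene was under it on 1 array, its fold is given as at least that size. Brightness also depends on the probes, so genes were compared by their ratios and not by their levels. The RNA came from whole animals, so fewer cells of a type and less RNA per cell cannot be told apart.

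The mbf1 gene itself had a signal of 22.1 on the mbf1 array and 478.7 on the yw array. Both arrays carried transcripts of adult tissues, although both are labelled embryo. Accessory gland markers were above the floor for 9 of 9 genes with a probe set on each array, and adult eye markers for 6 of 6. Of 10 testis markers, 8 passed it on the mbf1 array and 9 on the yw array. Of 12 markers of embryonic patterning and the embryonic nervous system, 4 passed it on the mbf1 array and 5 on the yw array. Of 3 yolk protein genes, 2 passed it on each array, with signals between 25.4 and 36.0. Of 6 larval markers, 1 passed it on each array.

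Of the 80 P450 genes, 62 were measured, which is 77.5%, and 57 were above the floor on both arrays. Across all genes 70.9% were measured. There were 3 P450 genes above the floor on the mbf1 array only, or 3.75%, namely Cyp6a17, Cyp6d2 and Cyp4ae1. On the yw array only there were 2, or 2.5%, namely Cyp301a1 and Cyp4d1. Among all 10843 genes, 7189 were above the floor on the mbf1 array, 7156 on the yw array and 6659 on both. By these counts, being above it on 1 array only was no more frequent among P450 genes than among all genes. The other 18 P450 genes were under it on both arrays. These were Cyp4c3, Cyp4s3, Cyp6a19, Cyp6g2, Cyp6v1, Cyp9b1, Cyp28d2, Cyp303a1, Cyp304a1, Cyp308a1, Cyp310a1, Cyp316a1, Cyp318a1, Cyp313b1 and 4 of the 5 Cyp313a genes, and no ratio is given for them.

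The family as a whole sat close to the bulk of genes, while single members lay far from it in both directions. The median log2 ratio of the measured members, mbf1 over yw, was -0.05, with 28 ratios above 0 and 34 below, and over the members above the floor on both arrays it was -0.11. The median of all measured genes was 0.00. On the mbf1 array 2 measured members were higher by at least 2-fold, or 3.23%, against a background of 1.51% of all measured genes. Lower by at least 2-fold were 5 members, or 8.06%, against 1.61%. Together that is 11.3% of the measured members against 3.12% of all measured genes. Restricted to genes past the floor on both arrays, it was 6 of 57 members, or 10.5%, against 2.64%. Of these, 1 member was higher, against 1.26% of all such genes, and 5 were lower, against 1.38%.

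The split of higher and lower members depended on how the arrays were scaled. With the values as deposited, 10 of 62 measured members were higher and 2 lower, against 10.1% and 0.431% of all measured genes. Scaling on the hybridization controls gave 5 of 61 higher and 5 lower, against 3.05% and 0.998%. The median over all genes was 0.50 in that first scaling and 0.19 in the other, and the median of the P450 genes 0.48 and 0.18. At a smaller threshold of 1.5-fold, 9 members were higher, against a background of 7.46%, and 9 lower, against 7.7%. Together that is 29.0% of the measured members, against 15.2% of all measured genes. The quartiles of the members were -0.34 and 0.26, and those of all measured genes -0.25 and 0.25.

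**Figure D1:**
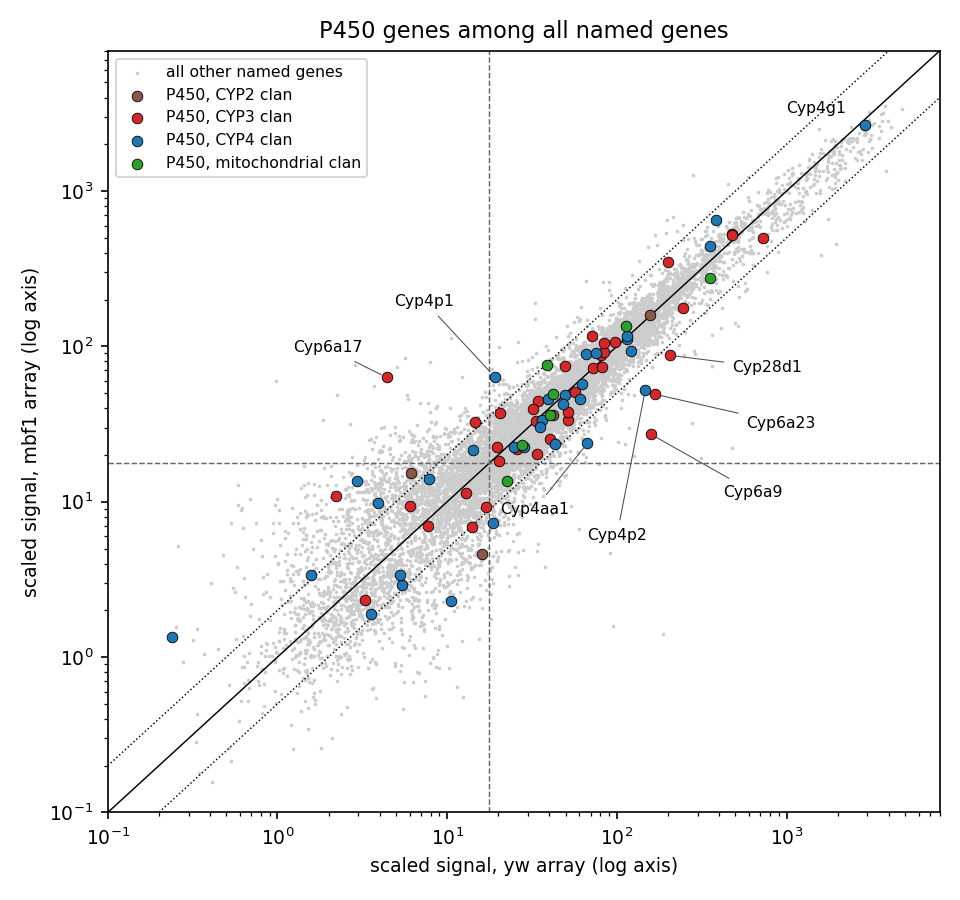
Scaled signal of each named gene on the mbf1 array (vertical, log axis) against the yw array (horizontal, log axis), 1 array each, with P450 genes coloured by clan. The solid line marks equal signal, dotted lines a 2-fold difference and dashed lines the floor of 17.7; most P450 genes lie between the dotted lines, and the 7 labelled genes other than Cyp4g1 are at least 2-fold apart.

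Of the 7 members at least 2-fold apart, Cyp6a9 had the largest ratio in size. Its signal was 27.2 on the mbf1 array and 158.3 on the yw array, 5.81-fold lower on the mbf1 array. Cyp6a23 had signals of 49.3 on the mbf1 array and 167.4 on the yw array, 3.40-fold lower. Both belong to the Cyp6a subfamily of the CYP3 clan, as does one of the higher genes. Cyp6a17, known for a role in temperature preference in the mushroom body, had 63.1 on the mbf1 array and 4.40 on the yw array, where it was under the floor, and was at least 3.56-fold higher. Cyp4p1 had 63.8 on the mbf1 array and 19.0 on the yw array, 3.36-fold higher, and its yw signal lay just above the floor.

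Among the remaining lower genes were 2 of the Cyp4 family. Cyp4p2 had signals of 52.2 on the mbf1 array and 147.0 on the yw array, 2.81-fold lower. Cyp4aa1 had 23.8 on the mbf1 array and 67.0 on the yw array, 2.82-fold lower. The lower genes were thus far from the floor in yw, and Cyp4aa1 and Cyp6a9 came near it on the mbf1 array. Cyp28d1, linked to resistance to nicotine in flies, had 87.6 on the mbf1 array and 204.4 on the yw array, 2.33-fold lower.

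These ratios were set beside the scatter of other genes, which is not a replicate error. Among the 500 measured genes of nearest mean signal, the robust SD of the log2 ratio was 0.37 for Cyp6a9, 0.31 for Cyp6a23, 0.42 for Cyp4p1, 0.32 for Cyp4p2, 0.41 for Cyp4aa1 and 0.35 for Cyp28d1. The log2 ratio of Cyp6a9 was -2.54, or -6.88 in units of that SD, and that of Cyp28d1 was -1.22, or -3.49 in the same units. Where 2 probe sets of 1 gene were both measured, in 260 pairs, their disagreement gave a robust SD of 0.37 per ratio. Each of the 7 genes was read by 1 probe set, so none of these ratios has a second reading.

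The members just short of the 2-fold threshold on the higher side were Cyp12c1 with a log2 ratio of 0.96, Cyp6d2, at least 1.84-fold higher, and Cyp9h1 with 0.87. Those on the lower side were Cyp4p3 with -0.86, Cyp6t3 with -0.73 and Cyp28c1 with -0.68. Cyp6t3, which has been implicated in ecdysone production in the prothoracic gland, had a signal of 20.3 on the mbf1 array, little above the floor, and 33.6 on the yw array.

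In chromosomal order, most differences of at least 2-fold sat in a few gene clusters. Members were taken as neighbours when at most 3 other genes lay between them. This joined 44 of the 80 genes into 15 clusters, 7 of them with at least 3 genes, and 24 of the 29 neighbouring pairs had no other gene between them. Of the 7 members at least 2-fold apart, 6 lay in a cluster, and Cyp4aa1 did not. Clusters held 34 of the measured members, and 28 lay outside them. Smaller differences were not confined to clusters. Beyond 1.5-fold were 11 members in clusters, or 32.4%, and 7 outside, or 25%. The median absolute log2 ratio was 0.23 in clusters and 0.33 outside.

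The largest cluster held 9 genes in the order Cyp6a22, Cyp6a17, Cyp6a23, Cyp6a19, Cyp6a9, Cyp6a20, Cyp6a21, Cyp6a8 and Cyp317a1. At one end, Cyp6a22 had signals of 33.3 on both arrays. The next gene was Cyp6a17, dark on the yw array and clearly present on the mbf1 array, and directly beside it lay Cyp6a23, bright on the yw array and 3.40-fold lower on the mbf1 array. The ratios of this adjacent pair were at least 3.60 apart on the log2 scale. Cyp6a19 was under the floor on both arrays, with 2.33 on the mbf1 array and 3.29 on the yw array. Then followed Cyp6a9 with the lowest ratio of the family.

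The other end of the same cluster differed less. Cyp6a20, known for its effect on male aggression, had signals of 22.5 on the mbf1 array and 19.7 on the yw array, a log2 ratio of 0.19. Cyp6a21 had 33.8 on the mbf1 array and 51.5 on the yw array, or -0.61. Cyp6a8, a gene that caffeine and barbiturates induce, had 73.8 on the mbf1 array and 81.6 on the yw array, or -0.15. Cyp317a1, at the far end, had 18.3 on the mbf1 array and 20.2 on the yw array, or -0.15, both close to the floor. In this cluster 1 gene was at least 2-fold higher, 2 were at least 2-fold lower, and the median of its 8 measured genes was -0.15.

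Genes that flank this cluster and are no P450 genes were read as well. On the side of Cyp6a22 the nearest genes with a probe set were Pcf11, at a log2 ratio of at least 0.57 and under the floor on the yw array, U3-55K, under the floor on both arrays, and CG33506 at 0.04. On the side of Cyp317a1 they were Kank at 0.19, Agps at -0.18 and CG12853 at -0.66. These genes were chosen by position, 3 on each side.

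The Cyp4p cluster of 3 adjacent genes showed a similar alternation. In chromosomal order Cyp4p2 was 2.81-fold lower on the mbf1 array, Cyp4p1 was 3.36-fold higher, and Cyp4p3, with signals of 23.6 on the mbf1 array and 43.0 on the yw array, was 1.82-fold lower. Cyp4p1 thus had its higher signal on the mbf1 array, and both genes beside it had theirs on the yw array. Of the nearest flanking genes with a probe set, hig, VhaAC45, Pkn, CG2063 and Cog6 had log2 ratios between 0.01 and 0.23, and Gnptab was under the floor on both arrays. In the cluster of Cyp28d2 and Cyp28d1, the flanking ratios lay between -0.48 for ND-13A and 0.07 for tkv.

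**Figure D2:**
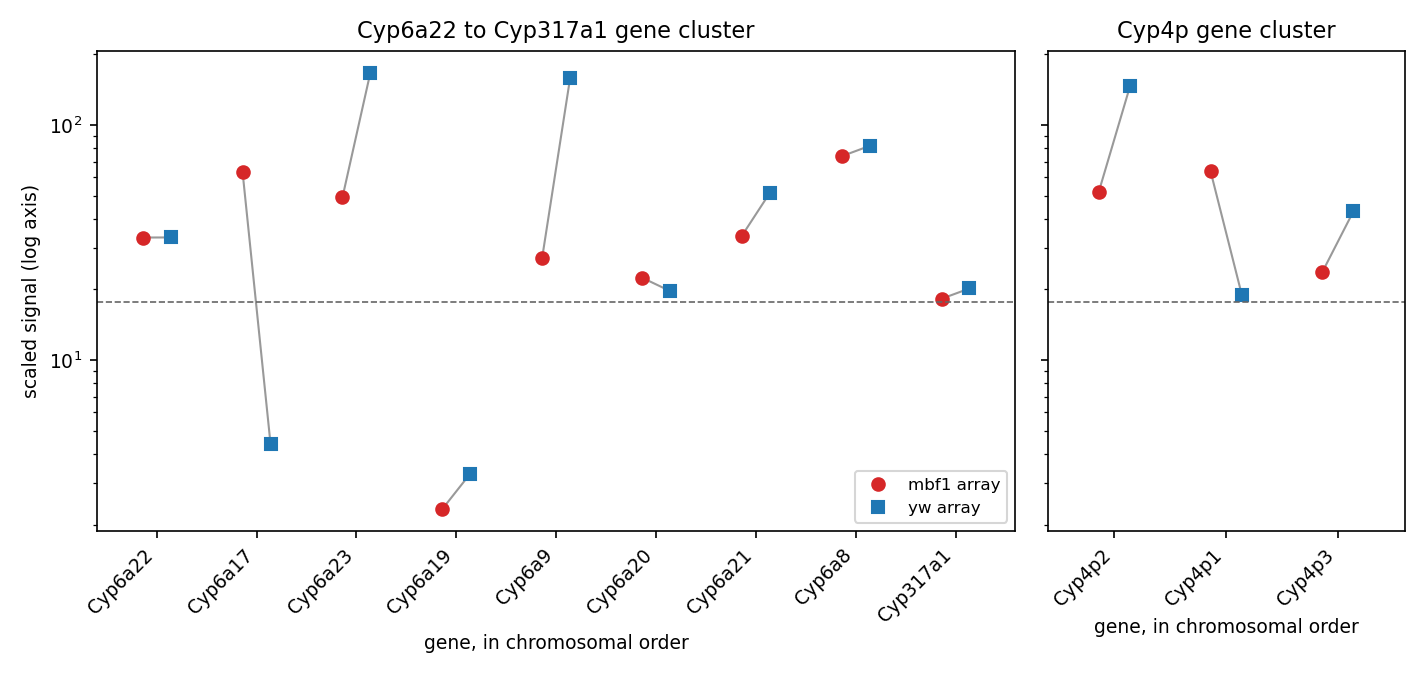
Scaled signal (log axis) on the mbf1 array (circles) and the yw array (squares), 1 array each, for the genes of both clusters in chromosomal order; the dashed line is the floor of 17.7. Cyp6a17 and Cyp4p1 are higher on the mbf1 array, while Cyp6a23, Cyp6a9, Cyp4p2 and Cyp4p3 are lower.

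Of the 29 neighbouring pairs, 18 had both genes measured, and the median absolute difference of their log2 ratios was 0.51. Over all 5345 neighbouring pairs of measured genes, taken by the same distance and including the P450 pairs, it was 0.37, and both medians hold pairs with a gene at the floor on 1 array. Ratios at least 2-fold different occurred in 5 of the 18 pairs, or 27.8%, against a background of 8.77%, and all 5 lay in the Cyp6a and Cyp4p clusters. A gene can stand in the pair on each side of it, so the 5 pairs are not separate observations. Cyp4p1 and Cyp6a17 were each in the pairs on both sides of them, and the remaining pair held Cyp6a9. In the remaining pairs the difference ranged between 0.0011, for Cyp6a8 and Cyp317a1, and 0.95, for Cyp309a1 and Cyp309a2, with the pairs of Cyp4d1 and Cyp4ae1 given from the floor. Among 143 other neighbouring pairs that share a symbol stem of at least 3 letters, a rough stand-in for duplicated genes that was chosen after the P450 values were seen, 17 pairs or 11.9% were at least 2-fold different.

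A gene at least 2-fold higher with a neighbour at least 2-fold lower was found in 3 of the 5345 pairs, or 0.0561%, and 2 of these 3 were P450 pairs, with no other gene between their members. They were Cyp6a17 with Cyp6a23 and Cyp4p1 with Cyp4p2. A constant scaling of an array moves both genes of a pair alike, so such a difference depends on it only through the floor and the threshold. With the values as deposited Cyp4p2 had a log2 ratio of -0.94, which left 1 of the 2 pairs past the threshold. When both arrays had to pass the floor, 1 pair was left too, since Cyp6a17 was under it on the yw array, and 0 were left where the floor was the 60th percentile. Genes of 1 subfamily can resemble each other in sequence, and whether their probes also bind each other's transcripts was not tested.

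In the cluster of 4 genes from Cyp4d1 to Cyp4ae1, Cyp4d14 had a log2 ratio of -0.18 and Cyp4d2 one of 0.03. Its end genes were under the floor on 1 array each, Cyp4d1 with 7.29 on the mbf1 array and 18.6 on the yw array, at least 1.05-fold lower, and Cyp4ae1 with 21.6 on the mbf1 array and 14.3 on the yw array, at least 1.22-fold higher. The Cyp4ac genes lay between -0.33 for Cyp4ac2 and 0.22 for Cyp4ac1. Cyp4ad1, Cyp4e2 and Cyp4e1 lay between -0.13 and 0.30. The cluster of Cyp6g1, Cyp6g2 and Cyp6t3 had 2 measured genes. Cyp6g1, whose overproduction gives resistance to DDT, had 502.2 on the mbf1 array and 726.2 on the yw array, a log2 ratio of -0.53 that became 0.019 with the values as deposited. The 3 adjacent genes Cyp313a5, Cyp313a2 and Cyp313a3 were all under the floor on both arrays.

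By clan, the CYP3 clan held 37 of the genes, the CYP4 clan 32, the mitochondrial clan 7 and the CYP2 clan 4. Of the CYP3 clan 30 were measured, 1 at least 2-fold higher and 3 lower, with a median log2 ratio of 0.06, which became 0.59 with the values as deposited. Of the CYP4 clan 23 were measured, 1 higher and 2 lower, with a median of -0.11, which became 0.43 with the values as deposited and 0.097 with scaling on the hybridization controls. All 7 mitochondrial members were measured, and the 6 past the floor on both arrays were less than 2-fold apart. Their median of -0.17 became 0.38 and 0.046 under those scalings, and the median of the 6 genes past the floor on both arrays was 0.03.

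Within the CYP3 clan, family Cyp6 had 20 of 23 genes measured, with 10 ratios above 0 and 10 below, a median of 0.00, and ratios between -2.54 for Cyp6a9 and at least 1.83 for Cyp6a17. The 4 measured Cyp9 genes all had the higher signal on the mbf1 array. The other Cyp9 gene, Cyp9b1, went the other way but was under the floor on both arrays. Its signals were 9.21 on the mbf1 array and 17.0 on the yw array, the latter just under the floor. Cyp9h1 had 37.4 on the mbf1 array and 20.5 on the yw array, 1.82-fold higher. Cyp9b2 had 350.0 on the mbf1 array and 200.8 on the yw array, 1.74-fold higher, and Cyp9c1 had 75.2 on the mbf1 array and 49.5 on the yw array, 1.52-fold higher.

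The fourth measured Cyp9 gene was the least different. Cyp9f2 had 526.6 on the mbf1 array and 476.4 on the yw array, a log2 ratio of 0.14, and its second probe set gave 0.26. The median of the family was 0.70, with 1.25 as deposited and 0.92 on the hybridization controls. Both of these scalings raised ratios in general, with medians over all measured genes of 0.50 and 0.19. The Cyp9 median could thus only rise under them. Quantile normalization and a loess fit each gave 0.69. A floor at the 60th percentile lowered the Cyp9 median to 0.37, and one at the 25th percentile, which Cyp9b1 passed, to 0.60.

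Family Cyp28 had 3 measured genes, Cyp28d1 at -1.22, Cyp28c1 at -0.68 and Cyp28a5 at 0.13. The Cyp6d subfamily had all 3 genes on the higher side, with Cyp6d5 at 523.6 on the mbf1 array and 478.3 on the yw array, or 0.13, Cyp6d4 at 0.29 and Cyp6d2. Of the Cyp6t subfamily, Cyp6t1 had -0.45, which turned with the scaling, since its deposited signals were 55.1 for mbf1 and 51.5 for yw. Cyp6a2, which metabolises insecticides and is induced by barbiturates, had 176.8 on the mbf1 array and 245.7 on the yw array, a ratio of -0.47 that became 0.076 with the values as deposited. The pair Cyp309a1 and Cyp309a2 had ratios of 0.71 and -0.24.

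Within the CYP4 clan, family Cyp4 had 20 of 22 genes measured and a median of -0.12, which became 0.43 with the values as deposited and 0.090 on the hybridization controls. Outside the Cyp4p genes and Cyp4aa1, its genes past the floor on both arrays had ratios within 1.5-fold. Cyp4g1, the oenocyte enzyme that makes cuticular hydrocarbons, had signals of 2653 on the mbf1 array and 2894 on the yw array, a log2 ratio of -0.12, with 0.43 as deposited. Cyp4g15, known from the brain, had 92.7 on the mbf1 array and 121.5 on the yw array, or -0.39. Cyp4d21, a gene of male courtship, had 89.8 on the mbf1 array and 65.7 on the yw array, or 0.45.

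Cyp4e2 had 439.9 on the mbf1 array and 356.1 on the yw array, a log2 ratio of 0.30. The Cyp313 family was dark except for Cyp313a1, which had 654.9 on the mbf1 array and 384.7 on the yw array, 1.70-fold higher. This gene and its dark relatives Cyp313a2 to Cyp313a5 carry the same subfamily name. Cyp311a1 had a ratio of -0.23 and Cyp312a1 one of -0.03.

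**Figure D3:**
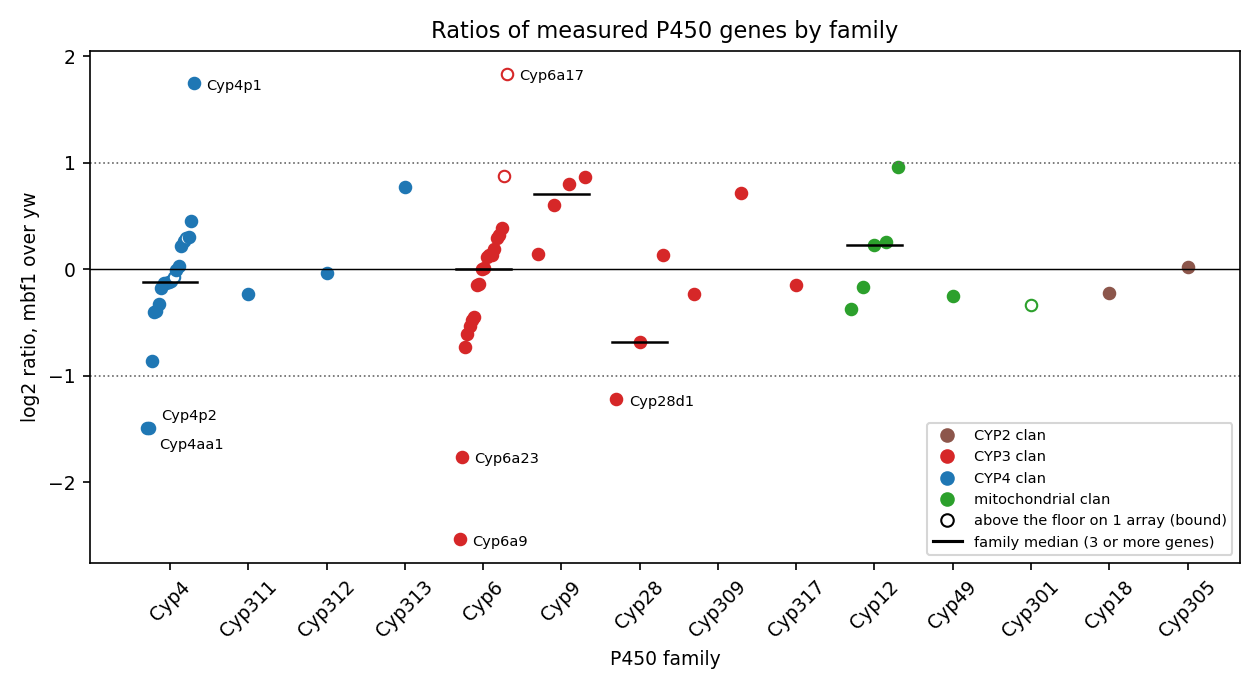
Log2 ratio, mbf1 over yw, of the 62 measured P450 genes by family, 1 array per genotype, coloured by clan; open points are bounds, black lines are medians of families with 3 or more genes, and dotted lines mark a 2-fold difference. The Cyp9 points all lie above 0, with Cyp9b1 under the floor on both arrays and not shown. Families Cyp4 and Cyp6, with 20 of the measured genes each, hold 6 of the 7 genes at least 2-fold apart. That is 15% of the measured genes in each of these families, against 11.3% of all measured members.

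In the mitochondrial clan, Cyp12c1 had the highest ratio, with signals of 75.4 on the mbf1 array and 38.9 on the yw array, 1.94-fold higher. Cyp12a4, whose overproduction gives resistance to lufenuron, had 274.3 on the mbf1 array and 355.2 on the yw array, a log2 ratio of -0.37 that became 0.18 with the values as deposited. Its neighbour Cyp12a5 had 0.22, Cyp12b2 0.26 and Cyp12e1 -0.17. Cyp301a1, needed for the adult cuticle, had 13.6 on the mbf1 array, under the floor, and 22.4 on the yw array, at least 1.26-fold lower. Cyp49a1 had a ratio of -0.25.

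Of the CYP2 clan, Cyp303a1 and Cyp304a1 were under the floor on both arrays. Cyp305a1 had 160.1 on the mbf1 array and 157.6 on the yw array, a log2 ratio of 0.02. Cyp18a1, the hydroxylase that inactivates ecdysteroids, had 36.1 on the mbf1 array and 42.3 on the yw array, or -0.23. The P450 genes of ecdysone synthesis carry other symbols and lie outside the rule. Of 8 listed genes of that pathway 5 had a probe set, and sad alone was measured, with 33.5 on the mbf1 array and 56.7 on the yw array, or -0.76. The synthesis genes spo, dib, shd and sro were under the floor on both arrays.

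Genes that serve the P450 enzymes differed by less than 2-fold where they were measured. Of 6 listed redox partners, Cpr and dare had no probe set of their own and were not read. The 4 with a probe set were all measured. Their log2 ratios lay between -0.55 for Fdx1, a ferredoxin that supplies mitochondrial P450 enzymes, and 0.15 for Cyt-b5. Of 7 haem genes with a probe set 6 were measured, with log2 ratios between -0.40 and 0.88. Alas, the first enzyme of haem synthesis, had 697.0 on the mbf1 array and 778.1 on the yw array, or -0.16. Urod, a later enzyme of the same pathway, had 130.7 on the mbf1 array and 71.2 on the yw array, 1.84-fold higher.

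Of 8 listed regulators of detoxification genes, all with a probe set, 4 were measured, and these stayed within 2-fold. The transcription factor gene cnc, the fly counterpart of Nrf2, had 78.2 on the mbf1 array and 70.7 on the yw array, a log2 ratio of 0.15, and its partner maf-S had 0.31. Keap1, which restrains cnc, had -0.43 at 17.8 on the mbf1 array and 23.9 on the yw array, close to the floor. Hr96, a nuclear receptor of the xenobiotic response, was under the floor on both arrays.

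Markers of tissues in which P450 genes are active are given by their summed signals, which would be 1.47-fold higher for mbf1 with the values as deposited. Their part in the P450 ratios was not tested. The signals of 8 midgut markers with a probe set summed to 12613 on the mbf1 array and 14957 on the yw array, and 7 passed the floor on the mbf1 array and 8 on the yw array. LysP was the most different, at 1.59 on the mbf1 array and 95.3 on the yw array. For 9 Malpighian tubule markers the sums were 1108 on the mbf1 array and 935.0 on the yw array, and 8 passed the floor on each, with tsh under it on both. For 5 fat body markers they were 1348 on the mbf1 array and 1420 on the yw array, and 4 passed the floor on each. On the mbf1 array Lsp2 was 2.53-fold lower and apolpp, the brightest, 1.44-fold higher. Fbp1 and Lpin had log2 ratios of -0.12 and -0.19, and Fbp2 was under the floor on both. For 4 oenocyte markers the sums were 3403 on the mbf1 array and 3584 on the yw array, and all 4 passed the floor on each. Of these 4 markers Cyp4g1 is itself a P450 gene, and its 2653 on the mbf1 array and 2894 on the yw array dominate both sums. FASN2 and KFase were higher on the mbf1 array, at log2 ratios of 0.61 and 0.37, and Desat1 was lower, at -0.18.

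The 7 members at least 2-fold apart kept their sign under 10 alternative settings of scaling, floor, pseudocount and probe set choice, or the 9 in which Cyp6a17 was measured. Not all of these settings could change a ratio or its sign. Each of the 7 genes had 1 probe set, so the settings of probe set choice left its ratio as it was. Requiring both arrays to pass the floor could only keep or drop a gene. A floor or pseudocount applied alike to both arrays cannot reverse a sign. The values as deposited and the hybridization controls moved ratios upward, so they could not turn Cyp6a17 or Cyp4p1. A lower floor could change only Cyp6a17, which was under the floor on the yw array. Cyp6a9 and Cyp6a23 stayed at least 2-fold lower in all 10, between -2.54 and -1.99 and between -1.78 and -1.21. Cyp6a17 ranged between 0.82, where the floor was the 60th percentile, and 3.17, where a pseudocount replaced the floor. Cyp4p1 ranged between 0.84, with the same floor, and 2.13, as deposited. Cyp4p2 and Cyp28d1 were under 2-fold only with the values as deposited, at -0.94 and -0.67. Cyp4aa1 was under it there and with the 60th percentile floor, where it was -0.91.

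**Figure D4:**
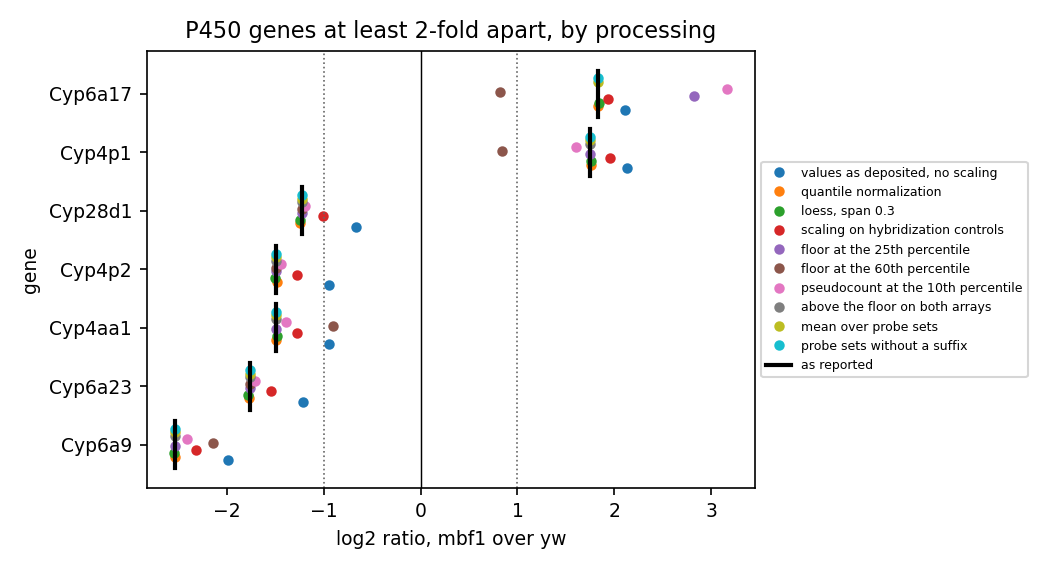
Log2 ratio, mbf1 over yw, of the 7 P450 genes at least 2-fold apart under 10 alternative settings (coloured points) and as reported (black bars), 1 array per genotype; dotted lines mark a 2-fold difference. No point crosses 0, and Cyp6a9 and Cyp6a23 stay below -1 in each setting. Settings of probe set choice could not move these genes, each read by 1 probe set. A floor or pseudocount applied alike to both arrays could not reverse a sign.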

How the data were processed

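Each deposited value is a linear intensity of 1 probe set on 1 array. MAS5 is named per the submitters' processing notes, with the version not given in the sources used here. Besides the 2 arrays, the series table held 0 other columns. Medians were 36.9 on the mbf1 array and 25.4 on the yw array. GEO's platform annotation gave 1 symbol for 12443 of 14010 probe sets, several for 327 and none for 1240, and 0 symbols changed when updated by gene identifier. All 80 P450 genes were found in a gene table of the Release 6 assembly, used only for names and neighbours. The sources used here name no build.

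To scale, a log2 ratio of 0.55 was subtracted, the median among probe sets that exceeded the median signal of each array. Values under the floor were raised to it. A gene with several probe sets, which 4 P450 genes had, was represented by the one of highest mean log signal. With 1 array per genotype no p-values were computed, and the number of arrays limits the precision. Named were members at least 2-fold apart, clusters of at least 3 holding one, the 10 members of highest mean signal, 3 members on each side of the threshold and the listed pathway genes. Members described beyond these were picked to cover the families after their values were seen. The members and lists were chosen with earlier results of these data known. The procedure was tested on simulated data. Python 3.11.15, numpy 2.4.6, pandas 2.3.3 and statsmodels 0.14.6 were used. Array settings files were not used here.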

Additional observations from a re-analysis of the deposited data

How the results depend on the processing

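No paired analysis was possible because each genotype had 1 array. The counts of 2 members at least 2-fold higher and 5 lower became 10 and 2 with the values as deposited, and 5 higher with scaling on the hybridization controls. With a floor at the 60th percentile 0 were higher, and with both arrays required to pass the floor 1 was. A threshold of 1.5-fold gave 9 higher and 9 lower, and 3-fold gave 2 lower, by construction. The median ratio of -0.05 became 0.48 as deposited and 0.18 on the hybridization controls, since the whole array shifted. It was 0.0094 with a floor at the 60th percentile, where 49 members were measured, and -0.11 over members above the floor on both arrays. The median difference between neighbours of 0.51 became 0.70 when no other gene was allowed between them, and elsewhere lay between 0.44 and 0.56. Under those settings the median over all neighbouring genes lay between 0.32 and 0.43. Of 273 ratios of 28 named genes under alternatives, 240 differed from the reported value by less than the scatter among genes of similar signal. Some settings could not change a given gene, such as those of probe set choice where a gene had 1 probe set. The 90 clan and family medians were held to a different limit, and 67 counted as the same. The CYP4 median, for example, counted as moved when the 60th percentile floor took it from -0.11 to -0.025. Dim signal is the limit for the 18 members under the floor on both arrays, whose ratios are unknown.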

Other observations

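The UDP-glycosyltransferase genes, whose enzymes attach sugars to the products of P450 reactions, were read as well. Of 33 with a probe set 18 were measured, 10 with ratios above 0 and 8 below, and their median log2 ratio was 0.07. Of these 18, 1 was at least 2-fold higher and 1 lower, against 1.51% and 1.61% of all measured genes. Ugt49C1 had signals of 79.1 on the mbf1 array and 25.8 on the yw array, 3.07-fold higher. Ugt37A3 had 20.1 on the mbf1 array and 62.8 on the yw array, 3.12-fold lower. Ugt36E1 had 29.2 on the mbf1 array and 9.89 on the yw array, under the floor, and was at least 1.65-fold higher.

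Some P450 probe sets stood outside the comparison. A probe set annotated to Cyp12d1-d and Cyp12d1-p together had signals of 50.2 on the mbf1 array and 57.1 on the yw array, and one annotated to Cyp12d1-d alone was under the floor on both. The second probe sets of Cyp9b2, Cyp318a1 and Cyp49a1 were under the floor on both arrays, although the first of Cyp9b2 had 350.0 on the mbf1 array and 200.8 on the yw array. The remaining neighbouring pair with a gene at least 2-fold higher beside one at least 2-fold lower was NT5E-2 at a log2 ratio of 2.09 and veil at -1.64, named after their values were seen.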
